A study of Rattus norvegicus with 12 samples.

Results

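The interaction of an NRF2 siRNA with cell type was examined gene by gene in rat lung artery cells, as the siRNA effect in endothelial cells minus that in smooth muscle cells. It covers the 14037 autosomal genes (chromosomes 1 to 20) that passed a low-count filter, of 31044 autosomal genes and 32883 genes in the table. NRF2 (gene Nfe2l2) is a transcription factor that KEAP1 marks for degradation in resting cells. Oxidants and electrophiles stop this, and NRF2 then drives genes of glutathione synthesis, quinone reduction, haem breakdown and NADPH supply. Endothelial cells line the pulmonary artery, and smooth muscle cells form its contractile wall. An siRNA leads to cleavage of the mRNA that it matches.

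Primary rat cells with the genotype label WT were sequenced in 4 groups of 3 libraries. These were PAEC (pulmonary artery endothelial cells, in endothelial growth medium) with NRF2 siRNA (siNRF2), PAEC with control siRNA (siControl), PASMC (pulmonary artery smooth muscle cells, in smooth muscle medium) with siNRF2, and PASMC with siControl. The sources used here do not give strain, age, passage, siRNA sequence or time after transfection. They call the 3 libraries biological replicates without naming animals or cultures, so p-values measure the spread between these libraries. Groups were read from the sample titles, because the cell type label reads PASMC on all 12 samples. Columns of the count table were matched by their letters (E or S for the cell, C or S for the siRNA), which is an inference, and exchanging either pair of letters would turn the sign of every difference given here. Genes are listed by Ensembl ID only, and 0 of 32883 IDs could be paired with a symbol. The siRNA target and markers of both cell types were not analysed here, and each gene is given by its position in the table's own coordinates, for which the sources name no genome build. Libraries held 27008812 to 34317763 counts, and levels are in CPM (counts scaled to library size with TMM factors). The siRNA effect is the log2 fold change of siNRF2 over siControl within a cell type. The difference is the PAEC effect minus the PASMC effect, and a negative one means that the gene was lowered more, or raised less, in PAEC.

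The siRNA effect differed between the cell types for 4075 of the 14037 genes, 29% of those tested (edgeR, adjusted p under 0.05, 3 libraries in each group). The PAEC effect lay above the PASMC effect for 1869 genes (13.3%) and below it for 2206 (15.7%). Most differences were modest, with a median size of 0.67 on the log2 scale and a median SE of 0.15. Differences of at least 2-fold were more often below, with 558 genes (3.98%), than above, with 296 (2.11%). At 4-fold or more, 124 genes lay below and 60 above. In 26 of the 558 and 11 of the 296, a whole group had 0 counts, so the size of those fitted differences depends on the default prior count of the edgeR fit. In bulk RNA, fewer cells of a type and less RNA per cell cannot be told apart.

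Genes reached a difference in several ways, which the calls within each cell type separate. Within the cell types, 1614 genes (11.5%) rose and 1880 (13.4%) fell in PAEC, and 2310 (16.5%) rose and 2000 (14.2%) fell in PASMC. Of the 2206 genes below, 887 rose in PASMC and were not called in PAEC, with median effects of -0.12 in PAEC and 0.52 in PASMC. A further 690 fell in PAEC and were not called in PASMC, with median effects of -0.65 in PAEC and 0.09 in PASMC. Another 371 genes (2.64% of all tested) fell in PAEC, with a median effect of -0.45, and rose in PASMC, with one of 0.45. A stronger fall in PAEC than in PASMC accounted for 69, and a weaker rise in PAEC for 25. The remaining 164 were called in neither cell type alone.

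The 1869 genes above mirrored this pattern. In this direction 843 fell in PASMC and were not called in PAEC, with median effects of 0.14 in PAEC and -0.52 in PASMC, and 554 rose in PAEC and were not called in PASMC, with medians of 0.51 in PAEC and -0.12 in PASMC. A further 223 genes (1.59% of all tested) rose in PAEC, with a median effect of 0.42, and fell in PASMC, with one of -0.42. A stronger rise in PAEC was found for 49 and a weaker fall in PAEC for 33, and 167 were called in neither cell type alone. The number that rose in PAEC and fell in PASMC depended on single libraries. It was 135, 123 and 380 without PAEC siControl replicate 1, 2 or 3, 140 without PASMC siControl replicate 2 and 134 without PASMC siNRF2 replicate 1. With the same libraries left out, the number that fell in PAEC and rose in PASMC was 275, 263, 501, 299 and 262.

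**Figure D1:**
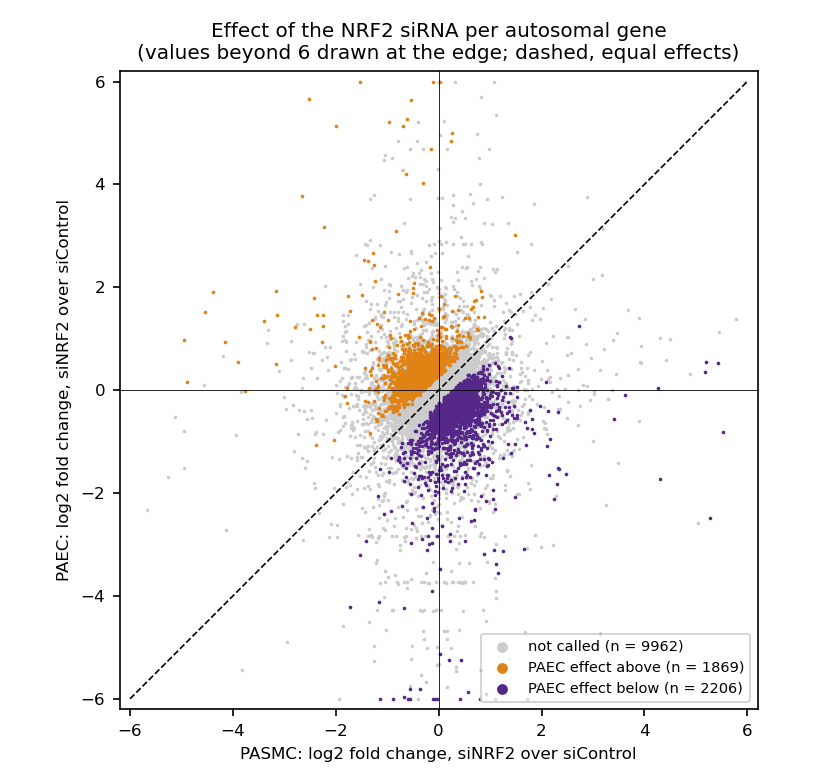
Each point is 1 of 14037 autosomal genes, with the log2 fold change of siNRF2 over siControl in PASMC on the x axis and in PAEC on the y axis, and colours give the interaction call (n = 3 libraries per group). The 1869 genes above and the 2206 below lie on either side of the dashed line of equal effects, and many of them sit in the upper left and lower right, where the effects have opposite signs.

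The cell type with the larger effect changed with the size of the difference. Among genes below, the effect was larger in PAEC for 299 of 777 (38.5%) where the difference was under 1.5-fold, for 387 of 871 (44.4%) from 1.5-fold to 2-fold, for 261 of 434 (60.1%) from 2-fold to 4-fold and for 90 of 124 (72.6%) at 4-fold or more. The strongest negative differences were thus mostly falls in PAEC. Among genes above, the corresponding shares were 353 of 789 (44.7%), 307 of 784 (39.2%), 115 of 236 (48.7%) and 35 of 60 (58.3%). The 60 genes above by at least 4-fold had a mean of only -0.50 on the log2 CPM scale, and the 124 below a mean of 0.77, so the largest fitted values came mostly from genes with few reads.

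Effects that were alike can be counted only through their intervals. Of 453 genes that rose in both cell types, 379 were not called in the interaction, and for 326 of them (72.0% of the 453) the 95% interval of the difference lay within 1.5-fold either way. Of 431 genes that fell in both, 329 were not called, and 207 of them (48.0% of the 431) had an interval within 1.5-fold. Over all 14037 genes, 3052 (21.7%) were not called and had such an interval, while for the other 6910 uncalled genes a difference of 1.5-fold was within the error.

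Single genes were taken by size of the difference, among genes called in the interaction whose mean reached 2 CPM in both cell types and whose siNRF2 and siControl libraries did not overlap in 1 or both of them (1741 above and 2031 below). These counts set the scope only, as the share of all tested genes without overlap is not given here. The files and the reference tables do not pair IDs with names, so only the 2 highest and the 2 lowest are given by ID. ENSRNOG00000049105, a single-exon gene of 75 bases (chromosome 10, 70109549 to 70109623, plus strand), had the highest difference under this rule. It stood at 10.3, 10.9 and 21.9 CPM in PAEC siNRF2, against 5.64, 3.58 and 5.8 CPM in PAEC siControl. In smooth muscle it stood at 3.12, 1.27 and 2.19 CPM in PASMC siNRF2, against 42.3, 24.8 and 86.5 CPM in PASMC siControl. The siNRF2 libraries were all higher than the siControl libraries in PAEC and all lower in PASMC. The siRNA effect was 1.52 in PAEC (SE 0.55, edgeR adjusted p = 0.079) and -4.54 in PASMC (SE 0.60, adjusted p = 0.00064), so that only the fall in PASMC passed the test on its own. The difference was 6.07 (SE 0.81, edgeR adjusted p = 0.0009).

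ENSRNOG00000002070 (chromosome 14, 14951495 to 15008150, minus strand, 9 merged exons) rose in PAEC and fell in PASMC. Its levels were 7.59, 3.09 and 7.57 CPM in PAEC siNRF2, against 2.15, 0.716 and 2.22 CPM in PAEC siControl. They were 0.54, 1.1 and 1.25 CPM in PASMC siNRF2, against 4.36, 2.01 and 3.5 CPM in PASMC siControl. The groups did not overlap in either cell type, although replicate 2 was the lowest library of both PAEC groups and of PASMC siControl. On the log2 scale the siRNA effect was 1.84 in PAEC (SE 0.46, edgeR adjusted p = 0.0062) and -1.77 in PASMC (SE 0.46, adjusted p = 0.0075). The difference of 3.60 (SE 0.65, edgeR adjusted p = 0.00064) was the second highest under the rule.

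At the other end, ENSRNOG00000019736 (chromosome 3, 152200936 to 152222647, minus strand, 13 merged exons) was near 1 CPM except in 1 group and 1 further library. It had 0.751, 1.12 and 0.656 CPM in PAEC siNRF2, against 15.8, 34.2 and 17.7 CPM in PAEC siControl. It had 0.824, 0.845 and 14.3 CPM in PASMC siNRF2, against 0.464, 0.496 and 0.827 CPM in PASMC siControl. In PAEC the siNRF2 mean was 0.84 CPM, so the gene passed the 2 CPM minimum there only through siControl. The 3 PAEC siControl libraries were all high, and in PASMC only siNRF2 replicate 3 was. The PASMC mean of 2.97 CPM passed the 2 CPM minimum through that library alone, since the other 5 PASMC libraries averaged 0.691 CPM, so the gene's place as the lowest difference under the rule rests on it. By the fit within each cell type, the siRNA effect was -4.74 in PAEC (SE 1.18, edgeR adjusted p = 0.02) and 3.14 in PASMC (SE 1.15, adjusted p = 0.073), and the difference was -7.88 (SE 1.64, edgeR adjusted p = 0.0081). Without PASMC siNRF2 replicate 3 the difference was -5.20 (SE 0.51, edgeR adjusted p = 3.5e-06).

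The second lowest under the rule was ENSRNOG00000023943 (chromosome 2, 248398917 to 248409570, plus strand, 10 merged exons), which fell in PAEC and rose in PASMC. It had 0.751, 0.372 and 0.726 CPM in PAEC siNRF2, against 5.11, 8.11 and 8.81 CPM in PAEC siControl. The smooth muscle levels were 7.67, 9.58 and 11.9 CPM in PASMC siNRF2, against 2.29, 4.09 and 6.66 CPM in PASMC siControl. No siNRF2 library overlapped the siControl range in either cell type, which the rule required in 1 or both. The siRNA effect was -3.56 in PAEC (SE 0.39, edgeR adjusted p = 2.9e-06) and 1.15 in PASMC (SE 0.33, adjusted p = 0.013). The difference was -4.72 (SE 0.51, edgeR adjusted p = 7.5e-06), with a 95% interval from -5.79 to -3.64. In PAEC the siNRF2 mean was 0.62 CPM, so the 2 CPM minimum was passed there only through siControl. This gene is also the last of a group of neighbours described below.

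Among the 10 highest differences under this rule, 6 genes had a single exon, and their exonic lengths ran from 57 to 418 bases. Among the 10 lowest, 3 had a single exon. Single-exon genes made up 7.17% of all tested genes, 18.2% of those above by at least 2-fold and 11.3% of those below by at least 2-fold. The 10 highest ran from 1.82 to 6.07 and the 10 lowest from -7.88 to -2.58, and at each of the 10 ranks the negative difference was the larger in size. All of the 10 lowest fell in PAEC, and 7 of them rose in PASMC. Of the 10 highest, 8 fell in PASMC and 5 rose in PAEC.

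The clearest opposite responses were ranked by the smaller of the effects in the cell types, among genes whose siRNA groups did not overlap in either. With the same 2 CPM minimum, 350 such genes fell in PAEC and rose in PASMC, of the 371 called in both (2.64% of all tested). The count of 350 sets the scope only, as the share of all tested genes without overlap is not given here. The first was a single-exon gene of 106 bases on chromosome 1 (101448331 to 101448436, minus strand). It stood at 7.74, 6.18 and 5.77 CPM in PAEC siNRF2, against 22.2, 19.9 and 14.9 CPM in PAEC siControl. It stood at 10.6, 9.75 and 11.4 CPM in PASMC siNRF2, against 0.959, 2.86 and 2.43 CPM in PASMC siControl. On the log2 scale the siRNA effect was -1.53 in PAEC (SE 0.26, edgeR adjusted p = 0.00037) and 2.34 in PASMC (SE 0.28, adjusted p = 1.5e-05), a difference of -3.87 (SE 0.39, edgeR adjusted p = 3.7e-06). Of its 106 exonic bases 91 are shared with another gene of the same strand in the table, so its reads may be divided between both.

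The second was a 7-exon gene on chromosome 20 (3226313 to 3233694, plus strand), which shares no exonic base with another gene. Its levels were 4.21, 5.62 and 3.32 CPM in PAEC siNRF2, against 39.2, 40.8 and 35.3 CPM in PAEC siControl. Its levels in smooth muscle were 82, 69.2 and 80.4 CPM in PASMC siNRF2, against 28.9, 29.8 and 38.3 CPM in PASMC siControl. The PAEC siNRF2 libraries thus lay far below, and the PASMC siNRF2 libraries above, all siControl libraries of either cell type. By the fit within each cell type, the siRNA effect was -3.14 in PAEC (SE 0.16, edgeR adjusted p = 3.7e-10) and 1.25 in PASMC (SE 0.14, adjusted p = 4.9e-06), a difference of -4.39 (SE 0.21, edgeR adjusted p = 7.2e-10). The third, a single-exon gene on chromosome 6 (76652206 to 76652757, minus strand, 91 of 552 exonic bases shared), stood at 4.69, 5.44 and 3.56 CPM in PAEC siNRF2, against 12.1, 12.4 and 9.85 CPM in PAEC siControl. It stood at 12.2, 8.2 and 8 CPM in PASMC siNRF2, against 3.96, 3.27 and 4.67 CPM in PASMC siControl. Its siRNA effect was -1.33 in PAEC (SE 0.22, edgeR adjusted p = 0.00024) and 1.25 in PASMC (SE 0.22, adjusted p = 0.00037), and its difference was -2.58 (SE 0.32, edgeR adjusted p = 2e-05).

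In the other direction, 200 genes rose in PAEC and fell in PASMC without overlap, of the 223 called in both (1.59% of all tested). The count of 200 likewise sets the scope only. By the smaller of the effects ENSRNOG00000002070 came first, with the limit on its level given above. The next was a single-exon gene of 418 bases on chromosome 8 (129371556 to 129371973, minus strand). It had 6.65, 9.42 and 5.98 CPM in PAEC siNRF2, against 2.43, 3.73 and 5.23 CPM in PAEC siControl. It had 3.38, 1.66 and 3.04 CPM in PASMC siNRF2, against 5.85, 8 and 6.69 CPM in PASMC siControl. The siRNA effect was 0.95 in PAEC (SE 0.30, edgeR adjusted p = 0.027) and -1.34 in PASMC (SE 0.30, adjusted p = 0.0026), a difference of 2.30 (SE 0.43, edgeR adjusted p = 0.00076). The third was a 2-exon gene on chromosome 1 (225048149 to 225051696, plus strand), with 4.84, 6.44 and 4.7 CPM in PAEC siNRF2, against 1.87, 2.45 and 3.29 CPM in PAEC siControl. It had 2.1, 1.32 and 1.31 CPM in PASMC siNRF2, against 3.5, 3.42 and 2.19 CPM in PASMC siControl. Its siRNA effect was 1.07 in PAEC (SE 0.32, edgeR adjusted p = 0.019) and -0.94 in PASMC (SE 0.32, adjusted p = 0.033), and its difference was 2.01 (SE 0.45, edgeR adjusted p = 0.003). Both genes had below 10 CPM in every library. The chromosome 1 gene had a mean of 1.58 CPM in PASMC siNRF2, so it passed the 2 CPM minimum in PASMC only through siControl.

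**Figure D2:**
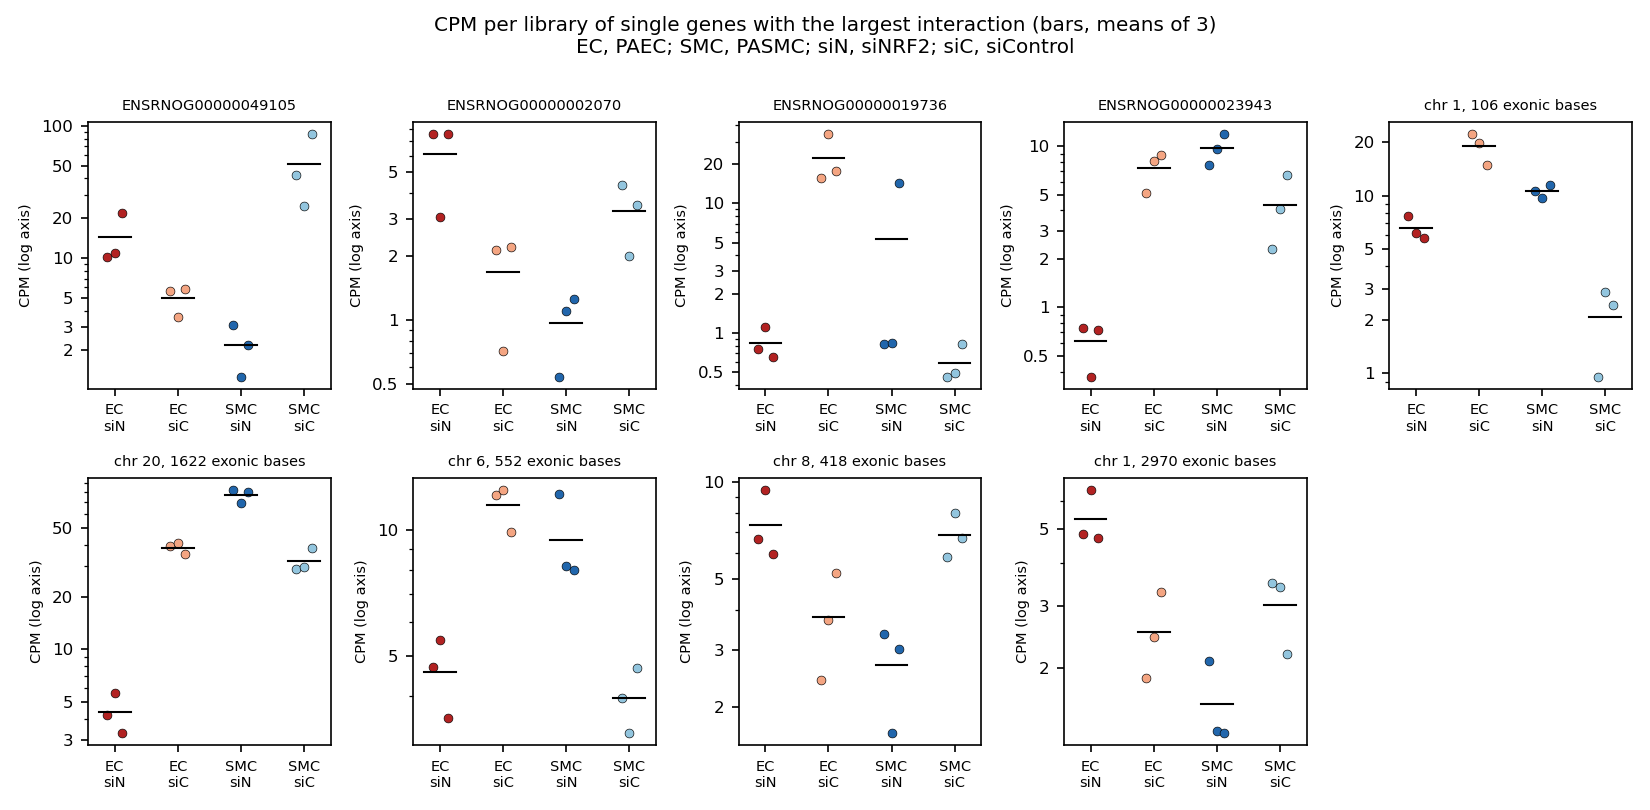
CPM per library (log axis) of the 9 single genes described above, with 3 libraries in each group and a bar at the mean. The panels run from the genes with the highest and lowest differences, named by ID, to those that fell in PAEC and rose in PASMC and those that rose in PAEC and fell in PASMC; in the panel of ENSRNOG00000019736 only 1 of 3 PASMC siNRF2 libraries is high.

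Neighbouring genes were then examined. A locus was defined as 3 or more consecutive tested genes that were all called in the interaction with the same sign and a difference of at least 2-fold. There were 6 such loci with 22 genes, on chromosomes 2, 6, 11, 14 and 20, and all 6 lay below, meaning a lower effect in PAEC. As background, 3.98% of tested genes were below by at least 2-fold and 2.11% above. The direction of the loci was not tested against this imbalance. Coordinates show no more than proximity, and genes of a locus that arose by duplication may share reads; the sources used here do not say how reads with several matches were counted. The number of loci was 11 without PASMC siControl replicate 3, and from 5 to 9 without any other single library.

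On chromosome 2, a run from 248249468 to 248409570 held 3 plus-strand genes that fell in PAEC, with a median effect of -2.67, while in PASMC 2 rose and 1 was not called. The first (248249468 to 248263168) had 1.01, 0.447 and 1.49 CPM in PAEC siNRF2, against 5.64, 7.35 and 6.01 CPM in PAEC siControl. In smooth muscle, where its level was higher, it had 34.3, 39.2 and 43.8 CPM in PASMC siNRF2, against 38.5, 45.8 and 43.6 CPM in PASMC siControl, and those groups overlapped. The difference was -2.55 (SE 0.31, edgeR adjusted p = 2.4e-05). The second (248276709 to 248293784) stood at 69, 78.6 and 63.5 CPM in PAEC siNRF2, against 123, 144 and 133 CPM in PAEC siControl. It stood at 312, 333 and 355 CPM in PASMC siNRF2, against 272, 286 and 283 CPM in PASMC siControl, without overlap. On the log2 scale the siRNA effect was -0.92 in PAEC (SE 0.09, edgeR adjusted p = 2.8e-07) and 0.25 in PASMC (SE 0.08, adjusted p = 0.029), and the difference was -1.17 (SE 0.12, edgeR adjusted p = 2.7e-06). The third is ENSRNOG00000023943, described above. No exonic base of the 3 is shared with another gene.

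On chromosome 6 the locus ran from 45655954 to 46631983, with a median difference of -1.48. The first gene (45655954 to 45669148, minus strand) had 13.1, 7.26 and 8.12 CPM in PAEC siNRF2, against 35.7, 33.6 and 36.2 CPM in PAEC siControl. It had 247, 276 and 295 CPM in PASMC siNRF2, against 356, 402 and 327 CPM in PASMC siControl. It fell in PAEC, with an effect of -1.89 (SE 0.17, edgeR adjusted p = 2.3e-06). The smaller fall in PASMC, -0.41 (SE 0.14, edgeR adjusted p = 0.046), was close to the threshold. The difference was -1.48 (SE 0.22, edgeR adjusted p = 0.00034). The second (45683234 to 45694822, plus strand) had 5.67, 7.63 and 5.87 CPM in PAEC siNRF2, against 14.9, 15.8 and 13.9 CPM in PAEC siControl. It had 96.7, 94.8 and 105 CPM in PASMC siNRF2, against 79, 88.9 and 82.8 CPM in PASMC siControl. It fell in PAEC only by its own test, with a log2 fold change of 0.24 in PASMC (SE 0.10, edgeR adjusted p = 0.069), and the difference was -1.46 (SE 0.15, edgeR adjusted p = 3.3e-06).

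The third gene of that locus lies far from the others (46629974 to 46631983, minus strand) and was almost absent from PAEC. It had 0 counts in the 3 PAEC siNRF2 libraries, against 4, 8 and 0 counts in PAEC siControl. Set against a floor of 3 counts over the group, that is a level 3.98-fold lower in PAEC siNRF2, with the siControl counts taken as exact. The PAEC groups overlapped, since 1 siControl library also had 0 counts, so this value is not a lower limit. In PASMC it stood at 4.17, 3.63 and 4.24 CPM in siNRF2, against 2.94, 2.22 and 3.7 CPM in siControl. With limma voom in place of edgeR its difference was not called (adjusted p = 0.13). The locus reaches 3 genes only through it, and the median of the locus is -1.48 also with this gene at that floor.

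On chromosome 11, the genes of the locus from 37798370 to 38059950 fell in PAEC, with a median effect of -1.75. The middle gene (37891156 to 37914983, minus strand, 14 exons) had 16.1, 12.4 and 17.6 CPM in PAEC siNRF2, against 70.5, 73.9 and 84 CPM in PAEC siControl. It had 185, 214 and 266 CPM in PASMC siNRF2, against 88.8, 105 and 117 CPM in PASMC siControl. By the fit within each cell type, the siRNA effect was -2.31 in PAEC (SE 0.16, edgeR adjusted p = 8e-08) and 1.10 in PASMC (SE 0.14, adjusted p = 6.9e-05), a difference of -3.40 (SE 0.21, edgeR adjusted p = 1.1e-07). The last gene (38035450 to 38059950, plus strand, 16 exons) had 32.6, 31.9 and 29.4 CPM in PAEC siNRF2, against 95.7, 104 and 95.3 CPM in PAEC siControl. It had 479, 518 and 636 CPM in PASMC siNRF2, against 239.8, 297 and 323 CPM in PASMC siControl. Its siRNA effect was -1.65 in PAEC (SE 0.11, edgeR adjusted p = 1.3e-08) and 0.93 in PASMC (SE 0.11, adjusted p = 8.6e-06), a difference of -2.58 (SE 0.16, edgeR adjusted p = 1.1e-08). Both were lower in every PAEC siNRF2 library, and higher in every PASMC siNRF2 library, than in all siControl libraries of the same cell type.

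The first gene of that locus (37798370 to 37880821, plus strand) was scarce in PASMC, at 0.483, 1.07 and 0.426 CPM in siNRF2, against 0.402, 0.526 and 0.73 CPM in siControl. In PAEC it stood at 1.2, 1.49 and 1.76 CPM in siNRF2, against 4.62, 5.13 and 5.26 CPM in siControl. Its difference was -1.99 (SE 0.57, edgeR adjusted p = 0.014). Without PASMC siNRF2 replicate 2 the call was lost, at -1.46 (edgeR adjusted p = 0.064).

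The locus on chromosome 14 held 3 plus-strand genes of 4 exons each between 17195014 and 17234712. The first (17195014 to 17198291) had 0.751, 0.968 and 0.242 CPM in PAEC siNRF2, against 2.61, 3.28 and 3.08 CPM in PAEC siControl. It had 13.8, 15.8 and 21 CPM in PASMC siNRF2, against 14.8, 20.3 and 19.9 CPM in PASMC siControl, with overlap. Its difference was -2.08 (SE 0.40, edgeR adjusted p = 0.0011). The second (17210733 to 17212930) had 20.6, 22.2 and 22 CPM in PAEC siNRF2, against 69, 73 and 90.8 CPM in PAEC siControl. It had 996, 1106 and 1183 CPM in PASMC siNRF2, against 1309, 1343 and 1269.7 CPM in PASMC siControl. The siRNA effect was -1.84 in PAEC (SE 0.10, edgeR adjusted p = 3.7e-10) and -0.26 in PASMC (SE 0.09, adjusted p = 0.035), so that both cell types had less of it under siNRF2 and PAEC lost more, with a difference of -1.59 (SE 0.13, edgeR adjusted p = 2.2e-07). The third (17228856 to 17234712) was near the detection limit, with 1, 10 and 0 counts in PAEC siNRF2, against 27, 30 and 30 counts in PAEC siControl. Its difference of -3.44 (SE 1.19, edgeR adjusted p = 0.037) lost its call when any of 10 of the 12 libraries was left out (adjusted p from 0.054 to 0.11), and it was -6.09 without PAEC siNRF2 replicate 2. Without this gene the locus holds only 2.

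The first locus on chromosome 20 held 5 plus-strand genes between 3176107 and 3282523, with differences from -4.39 to -1.68 and a median of -2.41. Of these, 4 fell in PAEC and rose in PASMC, each by its own test. The first (3176107 to 3179818) had 94.3, 109 and 94.8 CPM in PAEC siNRF2, against 301, 274 and 251 CPM in PAEC siControl. It had 414, 387 and 397 CPM in PASMC siNRF2, against 181, 206 and 234 CPM in PASMC siControl. The difference was -2.41 (SE 0.13, edgeR adjusted p = 2.5e-09). The second (3189473 to 3197457) had 21.8, 35.7 and 24.5 CPM in PAEC siNRF2, against 89.2, 93.7 and 79.5 CPM in PAEC siControl. It had 86.2, 73.7 and 83.5 CPM in PASMC siNRF2, against 47.8, 51.3 and 60.2 CPM in PASMC siControl. The difference was -2.29 (SE 0.21, edgeR adjusted p = 2.5e-06). The third is the 7-exon gene described above.

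The last 2 genes of this locus overlap on the same strand and share 52 exonic bases. One (3242470 to 3249189) had 0.3, 0.67 and 1.11 CPM in PAEC siNRF2, against 6.7, 6.33 and 5.08 CPM in PAEC siControl. It had 9.03, 8.85 and 9.995 CPM in PASMC siNRF2, against 2.75, 4 and 6.37 CPM in PASMC siControl. Its difference was -4.19 (SE 0.49, edgeR adjusted p = 1.2e-05). The other (3242492 to 3282523) had 1.09, 0.894 and 0.829 CPM in PAEC siNRF2, against 2.68, 1.92 and 0.859 CPM in PAEC siControl, with overlap. It had 7.75, 6.85 and 7.49 CPM in PASMC siNRF2, against 6.47, 3.39 and 3.55 CPM in PASMC siControl. It was called in neither cell type alone, and its difference of -1.68 (SE 0.50, edgeR adjusted p = 0.018) was lost without PAEC siControl replicate 1 (-1.29, edgeR adjusted p = 0.066). The other 4 were called with each library left out in turn.

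The second locus on chromosome 20, from 4302344 to 4508214, also held 5 genes, with a median difference of -1.36. The median effects were 0.79 in PASMC and -0.66 in PAEC. The PASMC effect was the larger in size except in the fifth gene, with 0.53 in PASMC and -0.84 in PAEC. Its first gene (4302344 to 4316715, minus strand, 41 exons) had 170.4, 173 and 171 CPM in PAEC siNRF2, against 313, 273 and 227 CPM in PAEC siControl. It had 194, 176 and 191 CPM in PASMC siNRF2, against 79.3, 76 and 83.1 CPM in PASMC siControl. On the log2 scale the siRNA effect was -0.66 in PAEC (SE 0.09, edgeR adjusted p = 3.5e-05) and 1.23 in PASMC (SE 0.09, adjusted p = 8.4e-08), a difference of -1.89 (SE 0.13, edgeR adjusted p = 3.2e-08). This gene shares 751 exonic bases with the second (4302347 to 4508214, minus strand), which spans the rest of the locus and whose difference was -1.20 (SE 0.39, edgeR adjusted p = 0.047). The fourth (4329811 to 4353785, plus strand, 30 exons) had 8.97, 11.3 and 8.05 CPM in PAEC siNRF2, against 16.6, 13.7 and 10.5 CPM in PAEC siControl, with overlap. It had 16.8, 14.9 and 17.2 CPM in PASMC siNRF2, against 7.08, 9.37 and 11.8 CPM in PASMC siControl, and a difference of -1.32 (SE 0.28, edgeR adjusted p = 0.0019).

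The third gene of that locus (4317440 to 4318342) had a difference of -2.70 (SE 0.77, edgeR adjusted p = 0.014) and the fifth (4355175 to 4357107) one of -1.36 (SE 0.50, edgeR adjusted p = 0.047), both at or below 4 CPM in every library. The second and last genes each lost the call when any of 10 of the 12 libraries was left out. The count of 5 in this locus therefore depends on the full set of libraries, while the other 3 genes were called with each library left out. Where both the second and the last gene lose the call, no 3 consecutive genes of the locus remain called. The locus then no longer meets its definition. Both also lost the call with the gene density trend removed, as described below.

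**Figure D3:**
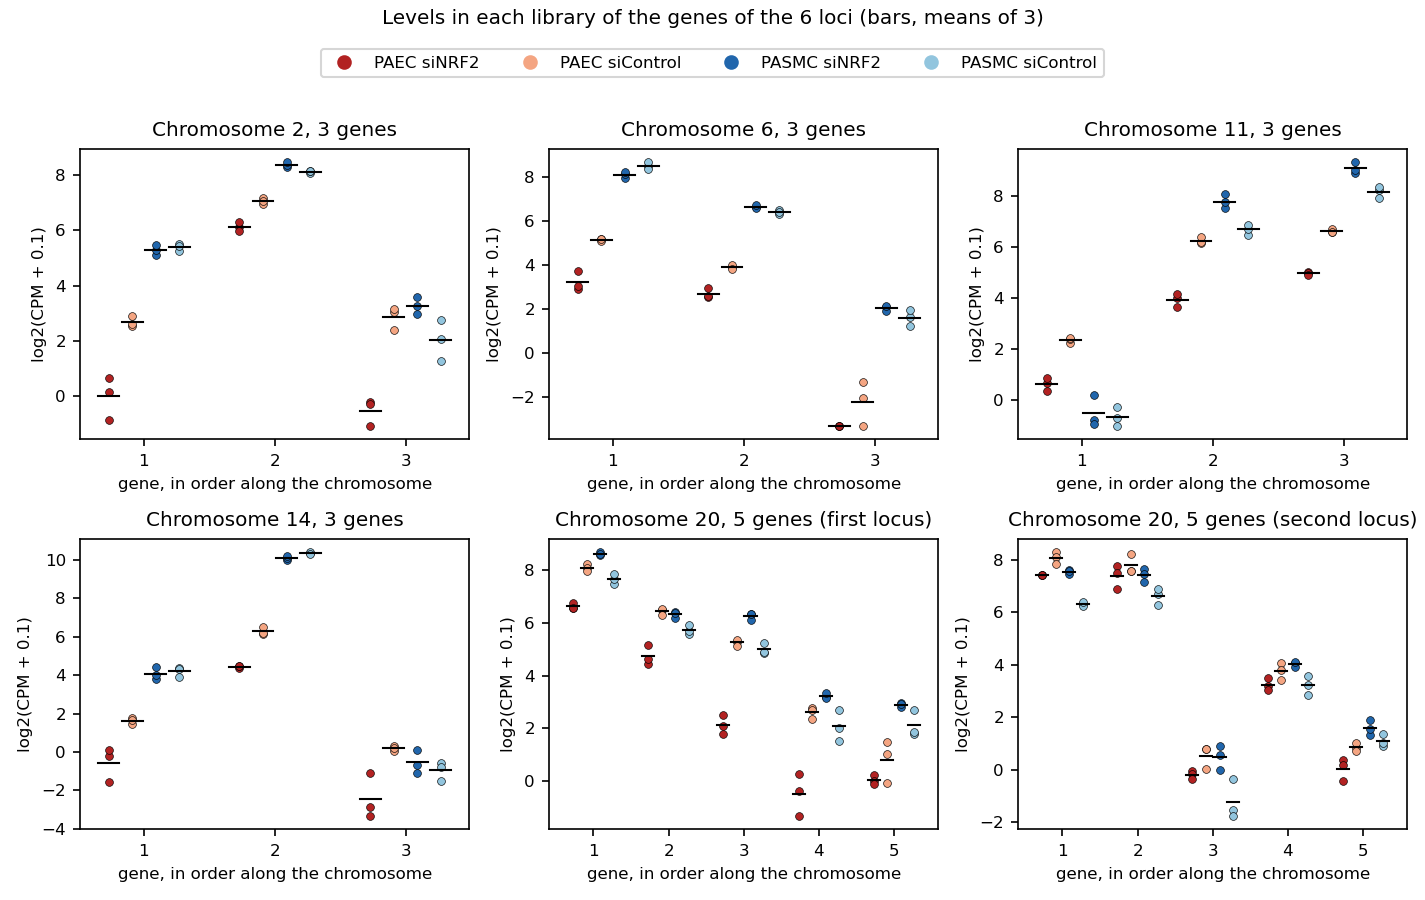
Levels as log2(CPM + 0.1) of the 22 genes of the 6 loci in each library, in order along the chromosome, with 3 libraries per group and a bar at the mean. The PAEC siNRF2 mean lies below the PAEC siControl mean in all 22 genes, and in the first locus of chromosome 20 the PASMC siNRF2 libraries lie above theirs.

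At a lower threshold of 1.5-fold there were 66 loci, 26 above and 40 below, of 3 to 5 genes. Chromosome 1, with 13% of the tested genes, held 9 of the 40 below and 2 of the 26 above, and 5 of the 9 lay between 100984550 and 101697277, with median differences from -1.60 to -0.63. Chromosome 20, with 3.15% of the tested genes, held 7 below and 0 above. Those on chromosome 20 included 4 genes from 3704208 to 3746964 with a median difference of -1.02 (median effects -0.35 in PAEC and 0.58 in PASMC) and 4 from 3935529 to 3993769 with a median of -1.01. The runs above with more than 3 genes held 4 on chromosome 1 from 61870347 to 62316450, with a median difference of 1.06, 4 on chromosome 9 from 51263622 to 52717809, with 0.98, and 5 on chromosome 18 from 40555106 to 40732126, with 0.73. In the chromosome 9 run the PAEC effect was a median of 1.03 and the PASMC effect -0.09.

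Whole chromosomes leaned one way. On chromosome 20, 106 of 442 genes (24.0%) were below and 36 (8.14%) above, and the median difference was -0.25, the lowest of the 20 autosomes. Chromosome 12 had 100 of 483 genes (20.7%) below and 31 (6.42%) above, with a median of -0.18. Chromosome 2 had the opposite balance, with 77 of 936 genes (8.23%) below, 202 (21.6%) above and a median of 0.16. The median effects behind these values were -0.11 in PAEC and 0.17 in PASMC on chromosome 20, and 0.02 in PAEC and -0.16 in PASMC on chromosome 2, so that the larger part came from PASMC. More genes lay below than above on 12 of 20 autosomes.

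**Figure D4:**
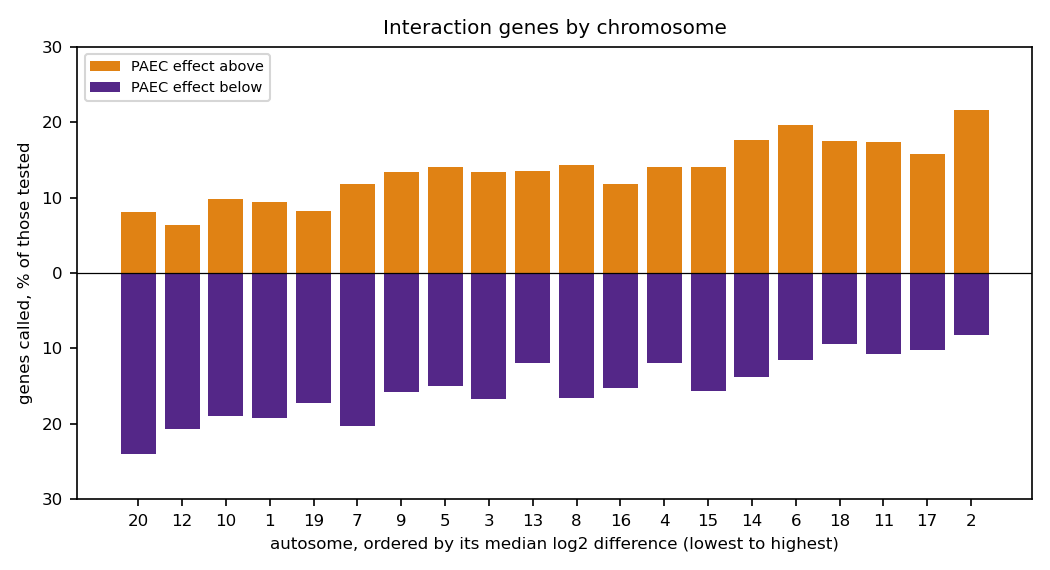
Share of tested genes on each autosome whose PAEC effect was above (upward bars) or below (downward bars) the PASMC effect, with autosomes ordered by their median difference. Shares below run from 24.0% on chromosome 20 to 8.23% on chromosome 2, and shares above from 6.42% on chromosome 12 to 21.6% on chromosome 2.

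The balance followed local gene density, taken as how many genes of the table lie within 500 kb on either side, by midpoints and with the gene itself counted. Where at most 7 genes lay in this window, 212 of 1162 genes (18.2%) were above and 90 (7.75%) below, with a median difference of 0.19. From 15 to 21 genes, 489 of 3048 (16.0%) were above and 357 (11.7%) below, with a median of 0.07. With 43 or more, 57 of 1955 (2.92%) were above and 540 (27.6%) below, with a median of -0.32. Genes in dense regions thus tended to be lower in PAEC, relative to PASMC, after the siRNA, and genes in sparse regions higher. In the densest bin the median effect was -0.10 in PAEC and 0.22 in PASMC, and in the sparsest 0.02 in PAEC and -0.15 in PASMC. Genes that fell in PAEC and rose in PASMC had a median of 31 genes in the window, those that rose in PAEC and fell in PASMC 14, and all tested genes 20. Within chromosomes the Spearman correlation of the difference with density, across genes above 1 on the log2 CPM scale that share the same 12 libraries, was below 0 on 20 of 20 autosomes, with a median of -0.26.

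Libraries of a single group also differed along this axis. Each library's slope of log2 CPM (centred within the cell type) on log2 density was -0.041, 0.00043 and -0.021 in PAEC siNRF2, against 0.063, 0.029 and -0.031 in PAEC siControl, so that the PAEC groups overlapped. It was 0.101, 0.040 and 0.059 in PASMC siNRF2, against -0.068, -0.092 and -0.040 in PASMC siControl, without overlap. The share of counts from the mitochondrial genome also differed between groups, at 4.61 ± 0.203% in PAEC siNRF2, against 3.83 ± 0.652% in PAEC siControl, and at 1.60 ± 0.142% in PASMC siNRF2, against 2.98 ± 0.329% in PASMC siControl (mean ± SD, n = 3). Its part in the result was not tested. When the trend of each library with density was entered as an offset, 1730 genes were above and 1905 below. Of the original calls, 1411 of 1869 above (75.5%) and 1595 of 2206 below (72.3%) were called again in the same direction, and of the differences of at least 2-fold, 264 of 296 above and 500 of 558 below. With this offset chromosome 20 still had 75 genes below and 38 above, and a median difference of -0.12, while chromosome 10, with 121 above and 232 below before, had 168 above and 146 below. Of the 22 locus genes, 19 kept their call, and the 3 that lost it start at 3242492, 4302347 and 4355175 on chromosome 20.

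**Figure D5:**
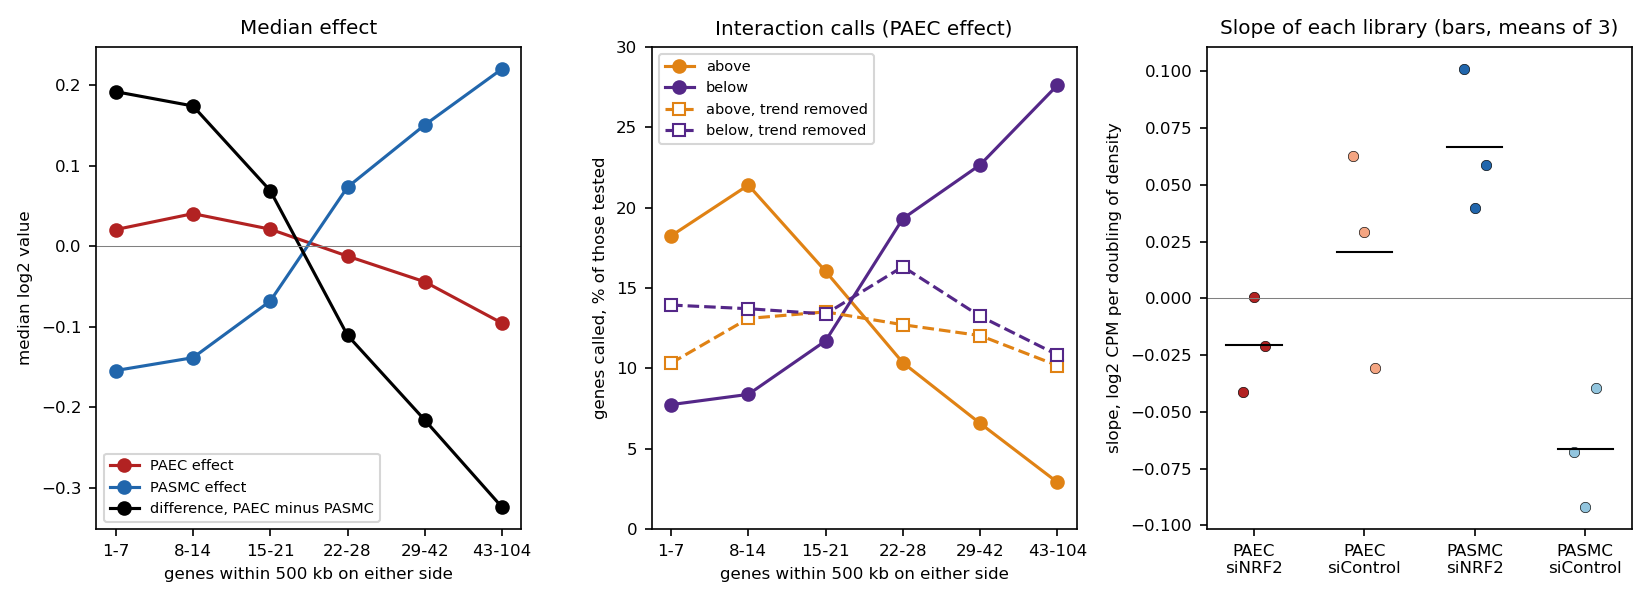
Left, median log2 effect in PAEC and PASMC and their difference by local gene density as defined above; middle, share of tested genes called above or below, without (filled) and with (open) the density trend of each library removed; right, slope of log2 CPM on log2 density for each of the 12 libraries, with bars at group means. The share below climbs from 7.75% to 27.6% with density, and with the trend removed it lies between 10.8% and 16.3%.

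Differences were also set against how cell-type-restricted a gene was, taken as the PAEC to PASMC ratio averaged over both siRNAs. Of 240 genes at least 8-fold higher in PAEC, 31 (12.9%) were above and 24 (10%) below, against 13.3% and 15.7% of all tested genes. Of 427 genes at least 8-fold higher in PASMC, 15 (3.51%) were above and 69 (16.2%) below, with a difference of at least 2-fold in 58 of the 69. The PASMC-enriched genes had median effects of -0.25 in PAEC and -0.07 in PASMC. By construction they have fewer reads in PAEC. The balance of the PAEC-enriched genes depended on the threshold and the tool. Of 532 genes at least 4-fold higher in PAEC, 52 (9.77%) were above and 64 (12.03%) below, and with limma voom 6.25% of the 240 were below. Of 890 genes at least 4-fold higher in PASMC, 38 (4.27%) were above and 135 (15.2%) below.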

How the data were processed

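RNA was isolated with Trizol and made into directional libraries, per the labels' protocols. The deposited table holds raw whole-number counts per gene, not normalized. The tools listed are HISAT2 2.0.5, featureCounts 2.0.3 and DESeq2 1.32.0, without roles, per the submitters' processing notes. The sources used here name no genome build, strand setting or treatment of reads with several matches, so overlapping genes on either strand may share reads.

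The members, lists and rules were chosen with earlier results of these data known. Genes were filtered with filterByExpr on the 4 groups, which left 14584 genes, of which 14037 are autosomal. Libraries were scaled by TMM, and 1 coefficient per group was fitted over all 12 libraries with edgeR 4.0.16 in R 4.3.3 (robust quasi-likelihood, 8 residual degrees of freedom). P-values were adjusted over all 14584 genes by Benjamini-Hochberg. Each standard error is the fold change divided by the root of its F statistic. Log2 CPM used a prior count of 2, whereas the fitted fold changes used the default prior count of the edgeR fit. The fit was checked on simulated counts with some genes changed in PAEC siNRF2 only. Of changes of 1.5-fold, 2-fold and 4-fold, 20%, 54.5% and 74.1% were called in the interaction with the right sign. Of all calls, 5.1% were false. True differences can thus be missed, more often when small. The simulation changed 70, 66 and 58 genes by these folds among 14333 tested, and held no trend with gene density. A far larger share of genes was called in the real data, so the simulated shares may not carry over. Alternatives were other scalings, DESeq2 1.42.0, limma 3.58.1 voom, other filters, replicate blocks, a density offset and each library left out. Genes were named by the rules given with them (2 highest and 2 lowest differences, 3 genes of each opposite class, and all genes of the loci). The 16 gene lists planned by symbol were not run. Libraries of 1 group were not duplicates (chi-square from 8.46 to 34.3 per gene), and all were kept. Intervals and floors cover counting error and library spread as stated, and 3 libraries per group limit the precision. Other chromosomes were not analysed here. No sequences are printed, since no ID could be paired with a reference entry.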

Additional observations from a re-analysis of the deposited data

Results flagged for a closer look

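The following genes differed in their response between PAEC and PASMC by the interaction test itself (edgeR, adjusted p under 0.05, 3 libraries in each group), and the values are log2 differences of the PAEC effect minus the PASMC effect. No outlier test was made within groups, which hold 3 libraries each. Among called genes whose mean reached 2 CPM in both cell types, with no overlap of the siRNA groups in 1 or both, the highest were 6.07 for ENSRNOG00000049105 and 3.60 for ENSRNOG00000002070 on chromosome 14, and the lowest -7.88 for ENSRNOG00000019736, which passed the CPM minimum in PASMC through 1 library, and -4.72 for ENSRNOG00000023943 on chromosome 2. ENSRNOG00000002070 in both cell types, and ENSRNOG00000019736 and ENSRNOG00000023943 in PAEC, passed that minimum only through the siRNA group where they were high. Opposite responses gave -3.87 on chromosome 1 (start 101448331), -4.39 on chromosome 20 (start 3226313) and -2.58 on chromosome 6 (start 76652206), and in the other direction 2.30 on chromosome 8 (start 129371556) and 2.01 on chromosome 1 (start 225048149).

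In the loci, chromosome 2 gave -2.55 and -1.17 beside ENSRNOG00000023943. Chromosome 6 gave -1.48, -1.46 and, for the gene with 0 counts in PAEC siNRF2, a fitted -5.69 that depends on the default prior count of the edgeR fit. Chromosome 11 gave -1.99, -3.40 and -2.58, and chromosome 14 gave -2.08, -1.59 and -3.44. The first locus of chromosome 20 gave -2.41, -2.29, -4.19 and -1.68 beside the gene starting at 3226313. The second gave -1.89, -1.20, -2.70, -1.32 and -1.36.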

How the results depend on the processing

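Under the alternative settings (library totals, DESeq2 size factors, the DESeq2 Wald test, limma voom, no filter, a stricter filter, autosomal genes only, replicate blocks and the density offset) the counts of genes above and below, of differences of at least 2-fold and of opposite responses stayed within 1.5 times the values given. No pairing of libraries by replicate number was seen across genes (correlations of same-numbered deviations from -0.074 to 0.046), which does not exclude pairing. With a replicate block 1787 genes were above and 2137 below, and with a block within cell type 1740 and 2087. With single libraries left out, genes above numbered 1437 to 2182, genes below 1749 to 2431, differences of at least 2-fold 235 to 415 above and 438 to 650 below, genes that fell in PAEC and rose in PASMC 262 to 501, the reverse 123 to 380, and loci 5 to 11. At 1.5-fold there were 66 loci, and 6 with overlapping genes counted as 1. The correlation with gene density was -0.28 to -0.24 with single libraries left out and 0.022, reversed, with the density trend removed, as that offset was built to do. The share of PAEC-enriched genes below was 7.50% to 11.7% with single libraries left out and 6.25% with limma voom, for which the cause was not tested. Genes with interval-alike effects numbered 398 to 577, and autosomes with more genes below 10 to 13. The checks of chromosome balance, enrichment and alike effects under these settings were chosen after seeing the data. Of 636 values for 29 named genes or positions, 593 kept direction and call, 43, from 6 genes, lost the call and 0 reversed. The gene at 4302347 on chromosome 20 had -0.75 with the density trend removed, and the gene at 46629974 on chromosome 6 had -2.85 with limma voom. With 3 libraries per group the median SE of the difference was 0.21 over all genes.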

Other observations

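The genes with a difference also varied by structure and level, given here as shares of the tested genes. Of 1007 single-exon genes, 84 (8.34%) were above and 127 (12.6%) below, and of 3249 genes with over 15 exons, 540 (16.6%) were above and 506 (15.6%) below. Genes above had a median span of 29.4 kb and genes below 13.8 kb, against 18.8 kb for all tested genes. The share called grew with level, from 2.02% above and 3.54% below under 1 on the log2 CPM scale to 23.3% above and 28.1% below at 6 or more. Calls of at least 2-fold did not grow in this way. They numbered 61 above and 107 below of 3021 genes under 1, and 109 and 159 of 2027 from 1 to 3. From 3 to 6 they numbered 103 and 206 of 5974, and at 6 or more 23 and 86 of 3015.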
